A study of Mus musculus with 2 samples.

Results

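S-phase cells, named here by a transcript rule for the stage in which DNA is copied, made up 59 of the 20951 kept barcodes. The 2 droplet libraries of mouse spleen held 36 of 10928 in the control and 23 of 10023 in the knockout. Whether each of these cells was copying its DNA was not measured. A barcode was kept if it held at least 500 genes and at most 10% of its unique molecular identifiers (UMIs, 1 for each captured transcript) in mitochondrial genes, which left 20951 of 22400. A kept barcode was counted as an S-phase cell if at least 3 of the 6 genes Pclaf, Rrm2, Tyms, Esco2, Hist1h3c and Hist1h1b had a UMI and at most 2 of the 6 mitotic genes Ccnb2, Ube2c, Cenpf, Cdca3, Tpx2 and Cenpe did. The members were thus chosen by their UMIs of these 12 genes, whose values are given as a description and support nothing.

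The study sorted CD27+CD11b+ natural killer (NK) cells from spleens of C57BL/6 mice by flow cytometry, pooled 2 mice of each genotype and made 1 library per genotype. The control genotype was EP3F/F, in which Ptger3, the gene of the prostaglandin E2 receptor EP3, carries floxed alleles. The knockout genotype was NKp46CreEP3F/F, in which the same floxed alleles are exposed to a Cre recombinase expressed under Ncr1 (NKp46, an activating receptor of NK cells). Both genotypes therefore carry the floxed alleles, only the knockout carries Cre, cells without Ncr1 activity keep Ptger3, and a Cre control without floxed alleles was not analysed here. Each genotype is 1 pooled library, so nothing could be tested between animals. All intervals given are exact, at 95%, and cover counting error only.

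Entry into S phase is driven by E2F transcription factors, which are released from RB-family proteins and switch on genes for nucleotide supply, for the MCM helicase that is loaded onto origins, and for the polymerases and clamps of the replication fork. Histone genes of the replication-dependent class are transcribed while DNA is copied, and the genes of the mitotic spindle follow later through promoters with CCAAT and CHR elements. Most mature splenic NK cells rest outside the cycle, and immature NK cells and dendritic cell precursors are among the spleen cells that divide.

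Promoters of genes that were higher together are shown first, with the promoters of later cycle genes beside them. RefSeq start sites on the GRCm38.p6 build were used, with 250 bases before and 50 after each start. The E2F-type words searched were TTTCGCGC, TTTGGCGC, TTTCCCGC and TTTGCCGC, on both strands. Any of them was found in 2.26% of 32851 promoter windows, and in 10 of 25 windows of the 20 matched genes of the origin licensing and helicase list. They were found in 4 of 11 windows of 10 matched genes among the 12 highest in S-phase NK cells, in 1 of 5 windows of the S-phase rule genes (Pclaf) and in 0 of 5 of the mitotic rule genes. Replication-dependent histone genes had them in 10 of 62 windows. CCAAT, in either direction, was found in 37.4% of all windows and in 5 of 5 windows of the mitotic rule genes, and TTTGAA, the CHR word, in 17.9% of all windows and in 4 of those 5. These words are not particular to mitotic genes: CCAAT was also found in 4 of 5 and TTTGAA in 2 of 5 windows of the S-phase rule genes, CCAAT in 15 and TTTGAA in 6 of 25 origin licensing windows, and CCAAT in 53 and TTTGAA in 28 of 62 histone windows. Overlapping matches were merged. Esco2 and Tpx2 are named without a window. In the first 8 lines below capitals mark an E2F-type word with 25 bases on each side where the window allows, and in the last 2 lines (Ccnb2 and Cenpf, of the mitotic rule) capitals mark CCAAT or TTTGAA in either direction. Only words that end before the start are printed and marked, while the counts also take in the 50 bases after it. Cenpf is thus counted with a TTTGAA that its line does not show. A match of letters is a description and no evidence of binding.
Mcm5, chr8:75109331-75109392, plus strand: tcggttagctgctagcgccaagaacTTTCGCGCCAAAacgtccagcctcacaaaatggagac
Mcm6, chr1:128359720-128359840, minus strand: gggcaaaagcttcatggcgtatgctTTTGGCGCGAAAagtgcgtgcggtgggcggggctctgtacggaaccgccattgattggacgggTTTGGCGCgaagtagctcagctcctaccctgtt
Mcm7, chr5:138172016-138172073, minus strand: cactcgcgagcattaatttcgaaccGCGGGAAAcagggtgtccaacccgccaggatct
Cdc6, chr11:98907988-98908045, plus strand: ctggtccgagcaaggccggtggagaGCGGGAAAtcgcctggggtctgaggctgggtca
Orc1, chr4:108579402-108579453, plus strand: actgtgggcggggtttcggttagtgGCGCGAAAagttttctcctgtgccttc
Uhrf1, chr17:56304103-56304160, plus strand: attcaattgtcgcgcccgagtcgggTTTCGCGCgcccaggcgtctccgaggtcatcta
Cdca7, chr2:72476123-72476180, plus strand: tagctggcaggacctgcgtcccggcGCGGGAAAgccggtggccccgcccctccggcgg
Cdk1, chr10:69353011-69353068, minus strand: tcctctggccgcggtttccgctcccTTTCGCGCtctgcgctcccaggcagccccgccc
Ccnb2, chr9:70421555-70421746, minus strand: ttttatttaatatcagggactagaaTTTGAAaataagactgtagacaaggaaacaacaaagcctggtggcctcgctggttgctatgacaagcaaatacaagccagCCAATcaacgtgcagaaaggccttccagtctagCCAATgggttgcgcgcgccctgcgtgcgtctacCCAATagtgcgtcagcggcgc
Cenpf, chr1:189688128-189688243, minus strand: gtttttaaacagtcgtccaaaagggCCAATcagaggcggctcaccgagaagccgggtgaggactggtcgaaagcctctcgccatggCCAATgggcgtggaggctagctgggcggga

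The share of S-phase cells was 0.329% of kept cells in the control (0.231 to 0.456) and 0.229% in the knockout (0.146 to 0.344), a ratio of 0.697 for knockout over control (0.394 to 1.21). The interval of the ratio includes 1. The ratio was 0.402 with at least 4 of the 6 S-phase genes required and 0.359 among cells of at least 1000 genes, but 0.705 with every cell thinned to 2000 UMIs. For comparison, mitotic cells, with at least 3 of the 6 mitotic genes, numbered 91 in the control and 36 in the knockout. Just inside the threshold, 17 control and 16 knockout members had exactly 3 of the 6 S-phase genes. Just outside it, 93 control and 33 knockout cells with at most 2 mitotic genes had exactly 2 of the 6. The upper limit on mitotic genes left out another 31 control and 19 knockout cells that had 3 or more S-phase genes, and of all cells with 6 of the 6 S-phase genes it kept 3 of 20 in the control and 0 of 11 in the knockout. The members thus leave out most of the cells in which every S-phase gene of the rule was detected.

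Pclaf, which encodes a PCNA-associated factor, was the most common rule gene and had a UMI in 53 of the 59 members. Hist1h1b, a linker histone, had one in 46 members, Rrm2, a subunit of ribonucleotide reductase, in 41, and Hist1h3c, a core histone, in 34. Tyms, thymidylate synthase, was found in 31 and Esco2, a cohesin acetyltransferase, in 12. The most frequent set was Pclaf, Rrm2 and Hist1h1b alone, in 1 control and 7 knockout members, and the next was Pclaf with both histone genes, in 6 control and 0 knockout members.

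The dividing cells were of more than 1 lineage. A UMI of Ncr1, Klrb1c or Klrk1, 3 receptors that mark NK cells, was found in 25 of 36 control members (69.4%, 51.9 to 83.7) and in 8 of 23 knockout members (34.8%, 16.4 to 57.3). Among all other kept cells, mitotic cells included, the share was 98.8% in the control and 97.0% in the knockout. Mitotic cells had it in 98.9% and 77.8%. In both libraries the whole interval of the S-phase cells lay below the value of the other kept cells.

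**Figure D1:**
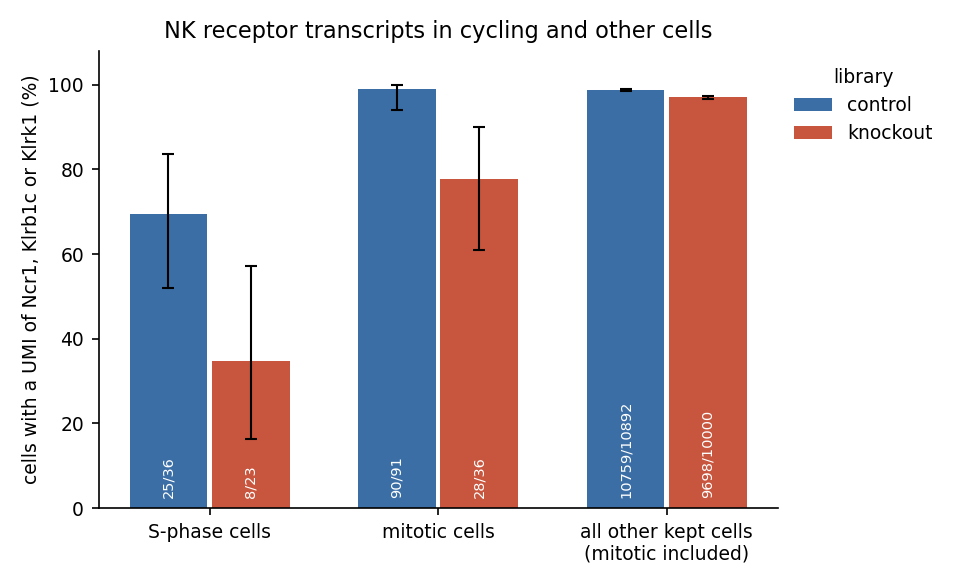
Percent of cells with a UMI of Ncr1, Klrb1c or Klrk1 (vertical axis, from 0) in S-phase cells, mitotic cells and all other kept cells of each library, with the number of cells in each bar and exact binomial 95% intervals for counting error. The S-phase bars stand at 69.4% and 34.8%, below the 98.8% and 97.0% of the other kept cells.

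Read the other way, 25 of 10784 control cells with an NK receptor UMI met the S-phase rule (0.232%, 0.150 to 0.342) against 8 of 9706 in the knockout (0.0824%, 0.0356 to 0.162). The ratio of knockout over control was 0.356 (0.139 to 0.813). The interval is for counting cells in these 2 libraries, and the spread between libraries of 1 genotype was not measured. Mitotic cells with an NK receptor UMI stood at a like ratio, 0.346 (0.218 to 0.533). Of the cells without an NK receptor UMI, 11 of 144 in the control (7.64%) and 15 of 317 in the knockout (4.73%) met the S-phase rule, a ratio of 0.619 (0.266 to 1.49). The share without an NK receptor was 33.0 times that with one in the control (14.6 to 69.4) and 57.4 times in the knockout (22.8 to 156).

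Depth differed along with each of these values, and its part in them was not tested beyond the thinning given here. The median NK receptor cell outside S phase held 5835 UMIs in the control and 3865 in the knockout. S-phase members with an NK receptor UMI were deep, with medians of 13434 UMIs (control) and 11476.5 UMIs (knockout). Of them 19 of 25 and 5 of 8 lay above the 90th percentile of other NK receptor cells (9560 and 6375 UMIs). Members without an NK receptor UMI were shallow, with medians of 1559 and 1881 UMIs beside 1614 and 1801 in the other cells without one. Each cell was then thinned to 2000 UMIs. Shallower cells, 272 of the control with 8 members and 406 of the knockout with 9 members, were left out. Then 18 of 10574 control NK receptor cells met the rule (0.170%) and 7 of 9449 in the knockout (0.0741%). Without an NK receptor UMI the thinned shares were 4 of 82 (4.88%) and 7 of 168 (4.17%). Thinning also changed which cells met the rule: of the 18 and 7 thinned NK receptor cells, 13 and 6 had been counted as mitotic at full depth, and 5 of 23 control and 1 of 8 knockout NK receptor members still met it.

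Most members with an NK receptor UMI held many. Of the 33 members 30 held at least 10, and 1 knockout cell held 5. The other 2 held a single one and were control cells of 1099 and 1254 UMIs, with 1 and 0 UMIs over 5 further NK genes (Klrd1, Klre1, Eomes, Prf1 and Gzma). One of them held 5 UMIs of macrophage genes and the other 19 of class II genes. Outside S phase an NK receptor UMI was found in 77.3% of control and 61.2% of knockout barcodes with at least 5 UMIs of macrophage genes. Among all other kept cells the share was 98.8% and 97.0%. Macrophages lack these receptors, but whether such barcodes are macrophages or NK cells with free RNA, or joined cells, was not tested. A receptor UMI alone was therefore not taken to define the lineage.

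Among the 26 members without an NK receptor UMI, 18 held at least 5 UMIs of H2-Ab1, H2-Aa, H2-Eb1, Cd74, Flt3 and Siglech, 8 in the control and 10 in the knockout. This limit of 5 UMIs was set after the values were seen. The first 4 genes encode MHC class II chains and the invariant chain, which dendritic cells, B cells and macrophages use to present antigen. Another 7 members held 5 or more together with NK receptor UMIs (3 control and 4 knockout), and whether these are pairs of cells was not tested. The last 8 members had neither: 1 control cell held 24 UMIs of Car1, carbonic anhydrase of erythroid cells, 1 knockout cell held 692 UMIs of haemoglobin and other erythroid genes among 1980, 1 knockout cell held 4 UMIs of the B cell gene Cd79a and 16 immunoglobulin UMIs, and 1 knockout cell held 10 UMIs of platelet genes. Of the remaining 4, 2 knockout cells held 6 immunoglobulin and 3 class II UMIs each, and 2 control cells held at most 2 UMIs of any marker list of other lineages.

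**Figure D2:**
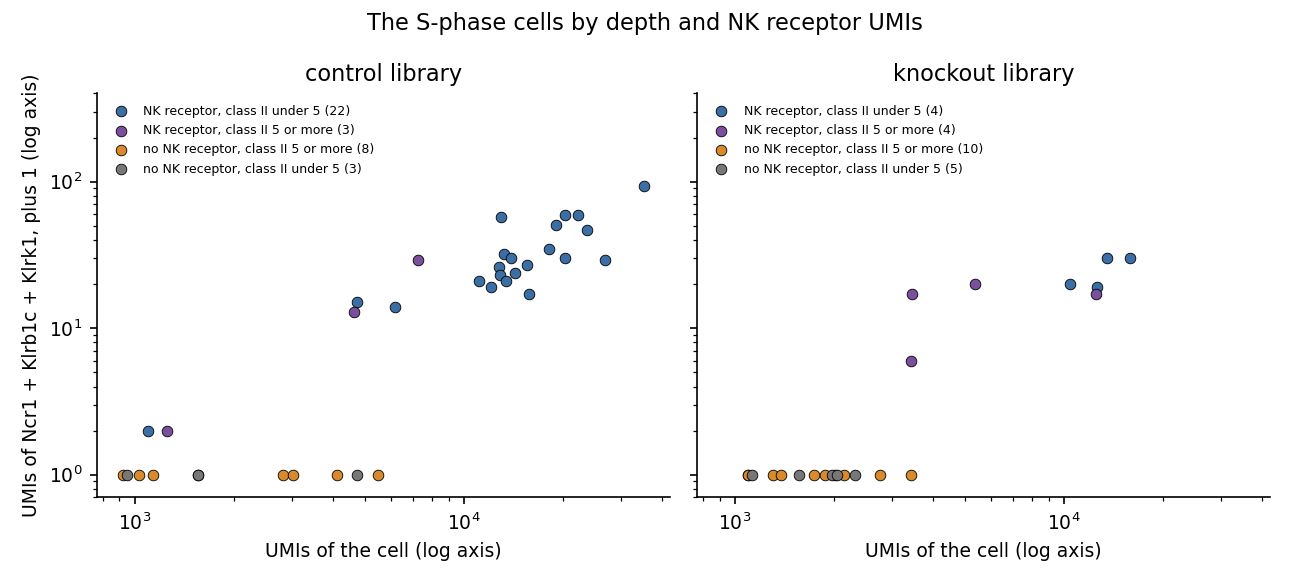
Each S-phase cell of the control library (left) and the knockout library (right), placed by its UMIs (horizontal, log axis) and by its UMIs of Ncr1, Klrb1c and Klrk1 plus 1 (vertical, log axis), and coloured by class with the number of cells. Cells without a receptor UMI lie on the bottom line at up to 5484 UMIs, and most cells with 10 or more receptor UMIs lie above 10000 UMIs.

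Markers of B cells and macrophages were few in the class II members. Cd79a was at 0 in all 18. It was also at 0 in the 86 other class II cells of the control and had a UMI in 10 of 200 in the knockout. Its absence in these few shallow members therefore says little about B cells. Immunoglobulin UMIs were found in 4 of the 18, and 1 knockout member held 8 of them with 1 UMI of the B cell list. Over the macrophage list (C1qa, C1qb, C1qc, Vcam1, Cd5l and Csf1r) the 8 control members held 7 UMIs (349 CPM) of which 1 cell held 6, beside 3072 CPM in the 86 other class II cells without an NK receptor UMI, and the 10 knockout members held 0 UMIs beside 7761 CPM in 200 such cells. CPM are UMIs of a gene or list summed over the cells and divided by all UMIs of these cells, times 1000000. Lyz2, a lysozyme of myeloid cells, had 0 and 1 UMIs in them. Dendritic genes outside the class II genes were found in some members. Cst3, cystatin C, had a UMI in 4 of 8 control and 6 of 10 knockout members, Gm2a in 5 of 8 and 5 of 10, and Plbd1 in 5 of 8 and 3 of 10. In the control Cst3 stood at 747 CPM in members against 8039 in the other class II cells (0.093 times, 0.052 to 0.154). In the knockout it stood at 3492 against 2960 CPM. Itgax, the integrin CD11c, was found in 4 of 8 and 1 of 10, Wdfy4 in 4 of 8 and 2 of 10, and Batf3, a transcription factor of dendritic cells, in 3 of 8 and 0 of 10. Flt3, a receptor of dendritic precursors, had a UMI in 0 of 8 and 2 of 10, and Siglech, Xcr1 and Cd209a in none. Irf8 had one in 0 of 8 and 1 of 10, beside 23 of 86 and 63 of 200 other class II cells. Zbtb46 and Clec9a each had one in 0 of 8 and 1 of 10. Cd74 stood at 7319 and 8572 CPM, 0.685 and 0.776 times its level in the other class II cells. No lineage name is given to them on this basis, and they are called class II members here.

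The S-phase rule was often met among class II cells, in 8 of 94 control cells without an NK receptor UMI and with 5 or more class II UMIs (8.51%, 3.75 to 16.1) and 10 of 210 in the knockout (4.76%, 2.31 to 8.58). The ratio of knockout over control was 0.560 (0.199 to 1.63), with an interval that includes 1. Among cells with an NK receptor UMI and fewer than 5 class II UMIs the share was 0.207% in the control and 0.0424% in the knockout.

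Within the class II members, genes of later cycle stages were higher as well as replication genes. Hmgb2, a chromatin protein of dividing cells, was at 4581 CPM in control members against 523 in the other class II cells (8.76 times) and at 7090 against 692 in the knockout (10.3 times). Stmn1, which regulates microtubules, was 9.72 times higher in the control and 21.4 times in the knockout, and Tuba1b, a tubulin, 8.04 and 7.69 times. Top2a, the topoisomerase that untangles copied DNA, was 9.52 and 14.7 times higher, at 10 and 16 UMIs. H2afz, a variant histone, was 2.92 and 4.56 times higher. These folds describe cells chosen for division genes and were not tested.

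Histone transcripts captured in these 3' tag libraries differed between the NK and the class II members. How much of all histone RNA such tags take in was not measured. The replication-dependent histone genes outside the rule, of which 65 symbols were listed, stood at 1573 CPM in control NK members (1446 to 1708) beside 1149 in other NK receptor cells, and at 855 CPM in knockout NK members (662 to 1088) beside 924. In class II members they stood at 6423 CPM (5362 to 7632) beside 765 in the control and at 12223 CPM (10697 to 13905) beside 948 in the knockout. Mitotic NK cells held 6395 and 10667 CPM. Histone transcripts were thus higher in class II members and in mitotic NK cells than in the NK members of the same library. Origin licensing genes were at 2251 and 2411 CPM in NK members and at 2639 and 2117 CPM in class II members. Hist1h3c and Hist1h1b of the rule are themselves histone genes. Over both libraries they held 44.4% of the UMIs of the S-phase rule genes in members without an NK receptor UMI. In members with such a UMI the share was 21.8%. How far the rule, its limit on mitotic genes and the depth of the cells set the histone difference was not tested. The histone level in class II members spread widely between cells, from 182 to 36092 CPM in the control with a median of 4501, where 1 cell held 38.0% of the histone UMIs, and from 5464 to 20954 CPM in the knockout with a median of 12492.

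Mitosis genes outside the rule were also higher in class II members, with sums of 16829 CPM (control) and 27568 CPM (knockout) beside 7229 and 8593 in NK members. By the median over cells, class II members stood at 15671 and 26919 CPM for this list, above the 12309 and 19565 of mitotic NK cells. Whether the shallow class II members are in S phase or later in the cycle cannot be told apart by this rule.

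**Figure D3:**
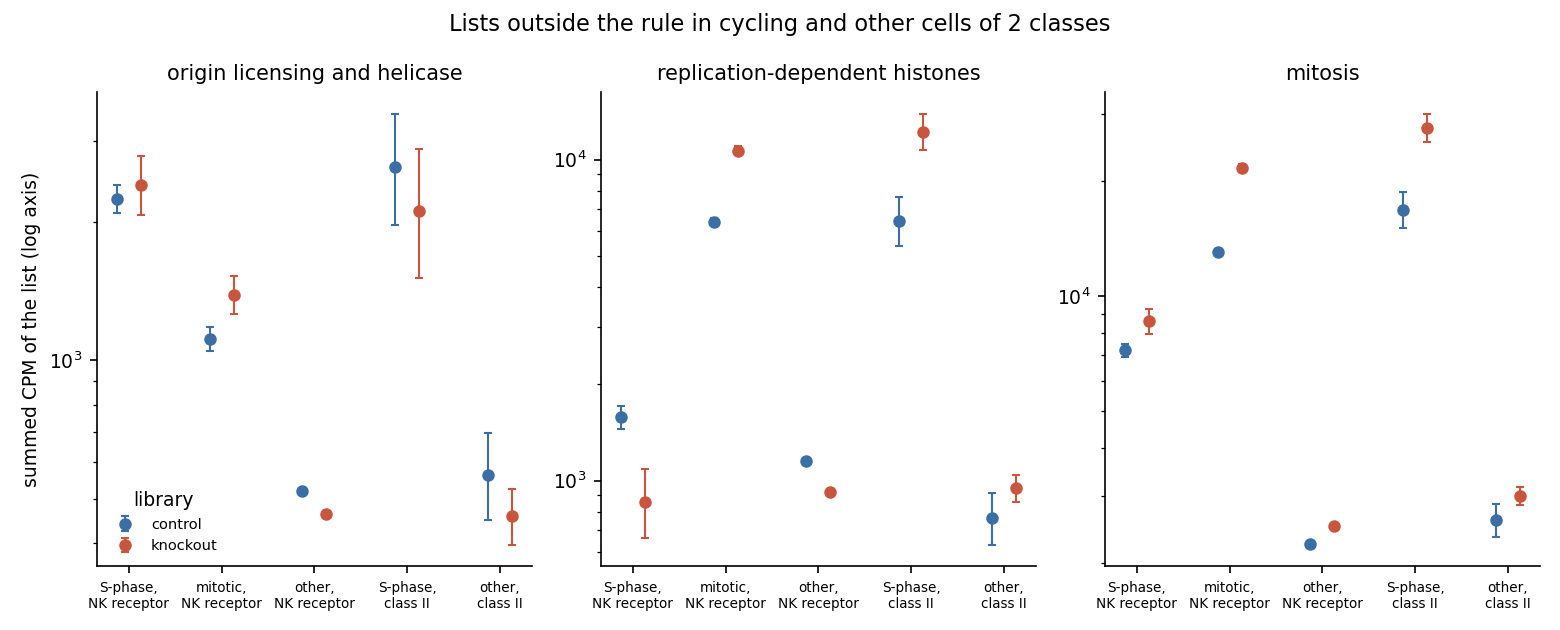
Summed CPM (log axes) of 3 lists outside the rule, in S-phase, mitotic and other cells with an NK receptor UMI and in S-phase and other class II cells without one, by library, with exact Poisson 95% intervals for counting error. Origin licensing genes stand at 2117 to 2639 CPM in both S-phase classes, while histone genes stand at 855 and 1573 CPM in S-phase NK cells and at 6423 and 12223 CPM in S-phase class II cells.

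S-phase NK members were next set against all other kept cells with an NK receptor UMI of the same library. The 25 control members held 358544 UMIs and the 8 knockout members 77152. A gene counted as measured when its mean over the 4 groups reached 30 CPM. It was called higher or lower, as a description, when the groups differed by a fold of 2 or more. Without the 12 rule genes 4214 genes were measured. In the control 4.79% were higher and 3.73% lower. In the knockout 9.18% were higher and 6.29% lower. In both libraries 151 genes (3.58%) were higher and 29 (0.688%) lower. The counting interval lay off a ratio of 1 for 201 of the 202 control calls upward but for 254 of 387 in the knockout, so the values of single genes in the 8 knockout cells are imprecise.

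The genes highest in both libraries included Uhrf1, Tk1 and E2f1. Uhrf1, which reads newly copied DNA for methylation upkeep, stood at 109 CPM in control members against 2.68 in other NK cells (log2 ratio 5.34, 4.81 to 5.85), and at 77.8 against 1.04 in the knockout (6.23). Tk1, thymidine kinase, stood at 75.3 against 1.71 CPM in the control (5.46) and 130 against 2.22 in the knockout (5.87). E2f1, the transcription factor of S-phase entry, had log2 ratios of 4.50 and 6.65, and was found in 11 of 25 and 5 of 8 members. Chek1, the kinase that stalls the cycle when replication falters, had log2 ratios of 4.57 and 6.26, and Clspn, its adaptor at the fork, 5.33 and 5.44. Cdca7, Dscc1, Mki67, Cdk1, Cdc45 and Fignl1 were also among the 12 highest, with log2 ratios between 4.31 and 6.22. Uhrf1 had a UMI in 15 of 25 control members, with at most 6 of its 39 UMIs in 1 cell. In the knockout it had a UMI in 3 of 8 members, with 4 of its 6 UMIs in 1 cell. The knockout ratios of Chek1 and Clspn rest on 5 and 8 UMIs.

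Origin licensing and helicase genes, which set up the start points of replication, were higher as a group. Of its 25 listed genes 16 were measured, and of these 12 were higher in both libraries and none lower. Over all genes 3.58% were higher, but genes near 0 in other NK cells were measured only where the members were high. The count is therefore a description, while the sums that follow take in the whole list. The list summed to 2251 CPM in control members against 520 in other NK cells (log2 ratio 2.11, 2.01 to 2.21) and to 2411 against 462 CPM in the knockout (2.38, 2.17 to 2.59). Mcm3 was at 273 against 24.1 CPM in the control and 272 against 21.7 in the knockout, and Mcm5 at 220 against 22.4 and 246 against 18.9. Cell by cell, 20 of 25 control and 7 of 8 knockout members lay above the 90th percentile of other NK cells for this list. The Mcm5, Mcm6, Mcm7, Cdc6 and Orc1 promoters printed above belong to it.

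The members were not uniform on this list. In 6 control NK members only 1 of the 4 non-histone rule genes had a UMI, so they met the rule through both histone genes. These 6 held 19 UMIs or 564 CPM of origin licensing genes (339 to 880), where the other 19 held 2426 CPM (2259 to 2601). By the median over cells they stood at 1025 CPM, beside 2563 in the other 19 and 448 in other NK cells. The 6 include both cells with a single NK receptor UMI. All 8 knockout NK members had 2 or more of the 4. Control NK members with 3 of the 6 genes held 1198 CPM, and those with 4 or more held 2771.

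Replication fork genes, the polymerases, clamp and clamp loaders, were higher in both libraries for 19 of 26 measured members, and none was lower in either library. The list stood at log2 ratios of 1.80 and 1.88. Lig1, the ligase that joins Okazaki fragments, was at 282 against 18.4 CPM in the control and 298 against 19.1 in the knockout. Nucleotide synthesis genes were higher in both for 11 of 17, with list ratios of 1.36 and 1.57, and Dut, which clears dUTP, was at 452 against 43.6 and 544 against 45.7 CPM. DNA damage response and repair genes were higher in both for 6 of 9 (1.47 and 1.76), with Ung, the uracil glycosylase, at 3.92 and 3.82. Of chromatin assembly and variant histone genes 9 of 19 were higher in both (0.60 and 0.40), among them Asf1b, a histone chaperone, at 3.88 and 4.08, and Hells, a remodeller, at 3.84 and 3.37. Of G1/S cyclin and E2F genes 5 of 10 were higher in both (0.55 and 0.76). As with origin licensing, these counts and the counts of higher genes below are descriptions, beside 3.58% over all genes. Genes near 0 in other NK cells were measured only where the members were high. Measured were 26 of 34 listed genes for the fork, 17 of 27 for nucleotide synthesis and 9 of 31 for repair. The list ratios take in all listed genes outside the rule.

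Mitosis genes outside the rule were higher in both libraries for 10 of 15 measured genes, with list ratios of 1.68 and 1.78. Of the 47 listed genes only these 15 were measured, so the limit above applies to this count. Mki67, the marker of dividing cells, was at 365 against 17.2 CPM in the control and at 220 against 7.95 in the knockout. In control members Mki67 had a UMI in 16 of 25 cells and in the knockout in 4 of 8, beside 3.61% and 1.46% of other NK cells. Stmn1 was at 1051 against 88.9 and 1568 against 125 CPM. The list was higher still in mitotic NK cells, at 13070 and 21652 CPM against 7229 and 8593 in the S-phase members.

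Replication-dependent histones were less even in NK members. Of 7 measured genes outside the rule 4 were higher in the control, and in the knockout 1 was higher (Hist1h3a, which was also higher in the control) and 1 lower. The sum of the list had a log2 ratio of 0.45 in the control and -0.11 in the knockout. Hist1h1e, a linker histone, was at 337 against 467 CPM in the control and at 77.8 against 276 in the knockout. Hist1h1c, another linker histone, was at 137 against 171 and 104 against 114 CPM. In other control NK cells Hist1h1e and Hist1h1c held 467 and 171 of the 1149 CPM of the list, so its sum says little about core histones. Of those, Hist1h2ae was at 112 against 38.8 and 64.8 against 43.8 CPM, and Hist1h4d at 128 against 82.6 and 64.8 against 72.7.

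Growth genes differed by less. Of 15 ribosome biogenesis genes 4 were higher in both libraries (0.66 and 0.56), with Nop58 and Fbl, proteins of ribosomal RNA modification, at 1.22 and 1.21 in the control and 1.32 and 1.21 in the knockout. Of 13 glycolysis and nutrient uptake genes 1 was higher in both, Gapdh at 1.35 and 1.27. Of 37 nuclear respiratory chain genes and 30 proteasome genes none was higher in both, with list ratios between 0.24 and 0.34.

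**Figure D4:**
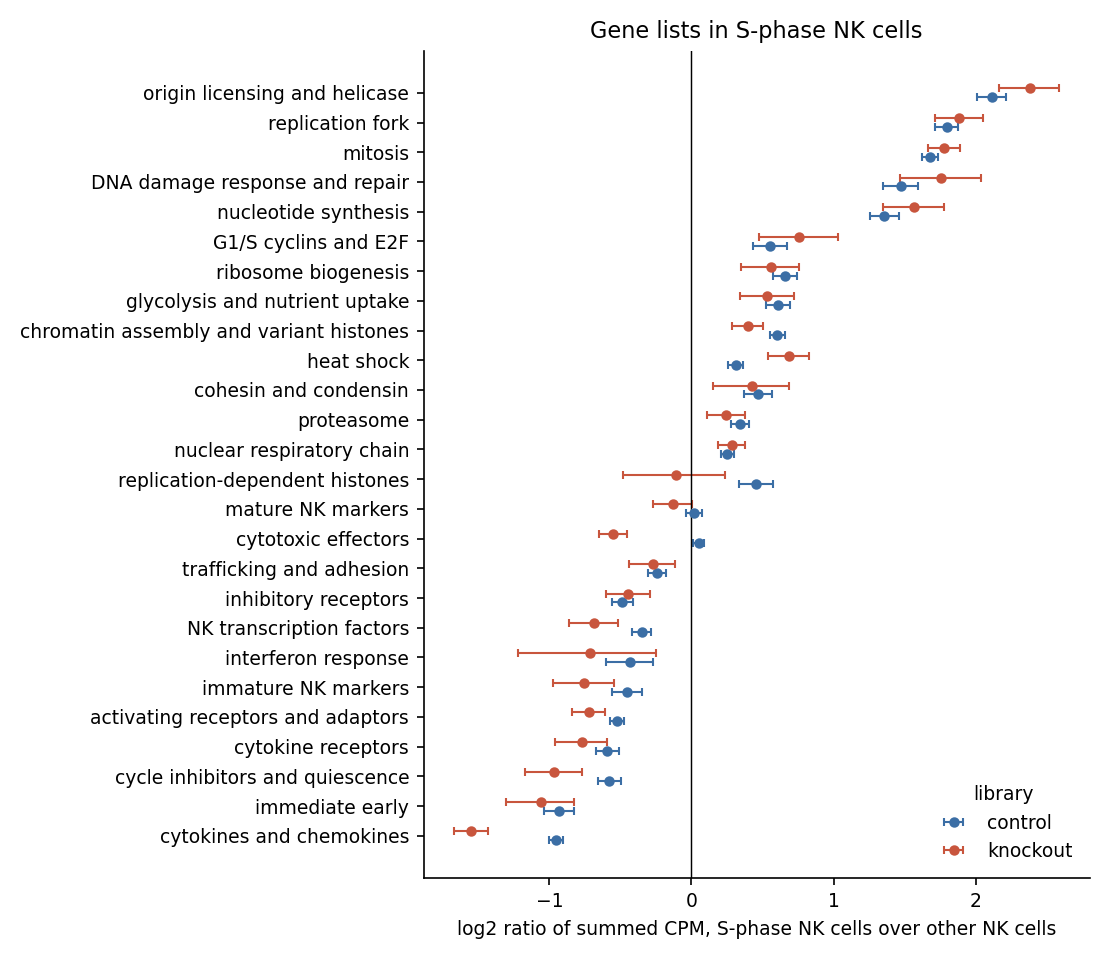
Log2 ratio of the summed CPM of each gene list (horizontal axis) in S-phase NK cells over all other NK receptor cells of the same library, for the control and the knockout library, with exact conditional 95% intervals for counting error. Origin licensing, replication fork, mitosis, repair and nucleotide synthesis lists lie above 1.3 in both libraries, and the cytokine and chemokine list lies at -0.95 and -1.55.

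The 29 genes lower in both libraries came from several lists. With both groups held between the UMI quartiles of the members 4 of the 29 were called in both, and with only cells of at most 2 UMIs of other lineages 8 of the 29. Cytokine and chemokine genes stood at 9235 CPM in control members against 17893 in other NK cells and at 7479 against 21921 in the knockout (log2 ratios -0.95 and -1.55). The lower level was not particular to the S-phase members. By the median over cells mitotic NK cells stood at 8607 (control) and 10677 CPM (knockout). The medians were 8846 and 6864 in the members and 17278 and 21221 in other NK cells. Of 8 measured genes of this list 2 were lower in both libraries. Ltb (lymphotoxin beta) was at -1.67 and -2.37, and the chemokine Ccl4 at -1.02 and -1.11. In knockout members Ltb rests on 3 UMIs and Ccl4 on 6 UMIs, each in 3 of 8 cells. In control members 26 of the 62 Ccl4 UMIs lay in 1 cell. Ccl5, the most abundant chemokine, was at 8470 against 16605 CPM in the control (-0.97) and 6934 against 20964 in the knockout (-1.60). Of 12 immediate early genes, the first to respond to stimulation, 5 were lower in the control, 4 in the knockout and 1 in both (Ier5, -1.01 and -1.50), with list ratios of -0.93 and -1.06. Junb was at 293 against 679 and 389 against 761 CPM. For the immediate early list too, mitotic NK cells had low medians over cells, 2138 and 1706 CPM. The members had 1895 and 1671 and other NK cells 3853 and 3725 CPM.

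Of 13 cycle inhibitor and quiescence genes only 1 was lower in both libraries, Btg1, an antiproliferative factor, at 416 against 853 CPM in the control and 441 against 1011 in the knockout. The list stood at -0.58 and -0.97. Among other genes lower in both, Klf6, a transcription factor, was at -1.24 in the control and at -2.53 in the knockout, where it rests on 3 UMIs (-4.80 to -0.98). The cytokine receptor Il7r had 1 UMI in control members and 2 in the knockout, with ratios of -3.68 (-8.98 to -1.20) and -1.63 (-4.68 to 0.23). Klra9, an inhibitory Ly49 receptor, was at 195 against 398 and 181 against 533 CPM, and Ly6c2, a Ly6 surface protein, was at 64.1 against 151 CPM in the control. It had 0 UMIs in knockout members, and set at 3 counts per group its log2 ratio was at most -2.36.

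Levels of NK identity genes were set beside these. The 3 NK receptors, which defined both groups of cells, summed to 2092 CPM against 3294 in the control and 1957 against 3338 in the knockout. None of 14 cytotoxic effector genes was called in the control, where the list stood at 14821 against 14319 CPM, and 2 were lower in the knockout, where it stood at 11199 against 16410 CPM. Prf1, perforin, was at 407 against 604 CPM in the control and 428 against 675 in the knockout. Cd27 and Itgam, the genes of the sort markers CD27 and CD11b, had log2 ratios of -0.33 and -0.61 in the control and -0.31 and -0.02 in the knockout. The transcription factors Eomes (0.02 and -0.67) and Tbx21 (-0.05 and -0.15) were not called in either library. Of 22 activating receptor and adaptor genes none and of 14 inhibitory receptor genes 1 was lower in both.

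Between genotypes, S-phase NK cells could be compared only as 25 against 8 cells of 1 library each. Ptger3 had 0 UMIs in the members of both libraries, so the deleted gene cannot be checked in them, and other control NK cells held 0.23 CPM. Other knockout NK cells had 0 UMIs of it, which allows a level of up to 0.0725 CPM. Of 4214 genes 289 (6.86%) were higher in knockout members and 329 (7.81%) lower. With ratios centred on the median gene, a shift of -0.11 on the log2 scale, 388 were higher and 254 lower. The counting interval lay off 1 for 79 of the 289 and 139 of the 329. Origin licensing stood at a log2 ratio of 0.10 (-0.14 to 0.33) for knockout over control with 1 of 16 genes higher and none lower, and the replication fork at 0.17 (-0.02 to 0.36) with 6 of 26 higher and 2 lower.

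The highest gene in the knockout members, Lyz2, had 58 UMIs there and 0 in control members. With the control at 3 counts per group its log2 ratio was at least 6.49. All 58 lay in 2 of the 8 knockout cells, which also carried 6 and 5 class II UMIs. Apoe, a lipoprotein of macrophages, had 19 UMIs in 2 cells against 8 in the control, and H2-Aa 15 UMIs in 4 cells against 8. These myeloid and class II transcripts were higher in other knockout NK cells too (log2 ratios of 2.03, 2.13 and 1.39 for Lyz2, Apoe and H2-Aa), and their part in the other differences was not tested. Tmsb15a, a thymosin, was at a log2 ratio of 2.33 (0.97 in other NK cells) and E2f1 at 1.63 (-0.53). With only cells of at most 2 UMIs of other lineages, 17 control and 3 knockout members remained, and 144 of the 289 higher genes and 71 of the 329 lower genes were called there as well, of 341 and 141 called in that setting.

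At the low end Srsf11, a splicing factor, had 1 UMI in knockout members against 98 in the control (log2 ratio -4.40, -9.72 to -1.89), beside -0.10 in other NK cells. Apobec3, a restriction factor against retroviruses, had 2 against 90 UMIs (-3.28, -6.34 to -1.38), beside -1.85 in other NK cells. Ahnak, a large scaffold protein, was at 259 against 1091 CPM (-2.07, other NK cells -1.06). Genes that set the libraries apart as a whole did so in S phase as well. Wls, a carrier of Wnt proteins, was at a log2 ratio of 2.63 in S-phase and 3.48 in other NK cells, Cirbp, a cold-inducible RNA-binding protein, at 2.22 and 2.32, and Hsph1, a heat shock protein with 2 UMIs in knockout members, at -2.03 (-5.13 to -0.08) and -3.69. With 1 library per genotype the genotype and the preparation cannot be told apart in any of these values.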

How the data were processed

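Transcripts of sorted splenic NK cells were counted in 2 droplet libraries of 3' tags, 1 per genotype, each from 2 pooled mice. The authors deposited unnormalized counts, the UMIs of every gene in every barcode. Per the submitters' processing notes STAR, Cell Ranger 3.0.0, Seurat and the build GRCm39 were used, and per the labels a v2 kit. Reads were not used here.

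The filter on genes and mitochondrial UMIs left 10928 of 11785 control and 10023 of 10615 knockout barcodes, and the library totals were 69853026 and 42795121 UMIs. Doublets were neither called nor taken out. Of the barcodes 33 occurred in both libraries, and 0 of them were members. Counts were summed over cells of a class and given per 1000000 UMIs. A side under 3 counts was put at 3 counts per group for a call, and no ratio was used where this left no direction. Intervals are exact (Poisson, Clopper-Pearson or conditional binomial) at 95% and cover counting error only. The ratios were tested on simulated data. The scripts ran on Python 3.11.15 with pandas 2.3.3, scipy 1.17.1 and numpy 2.4.6, and the plots were drawn with matplotlib 3.10.9. Promoters were matched to RefSeq by symbol or by a synonym of 1 gene only.

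The members, gene lists and rules were chosen with earlier results of these data known. Named genes are the 12 rule genes, Ptger3 and the NK receptors, the 12 highest and 12 lowest mean log2 ratios of at least 50 CPM called in both libraries, up to 4 genes of each list with the largest ratio, and the 8 highest and 8 lowest for knockout over control of at least 100 CPM. Left out of these were predicted genes, sex-specific genes, haemoglobins, antigen receptors and the genes of ribosomal proteins and mitochondria. Genes of the class II members, Wls, Cirbp and Hsph1 were chosen after their values were seen. 1 gene that the rule names is not reported here. Alternatives were the rule's thresholds, the cell filters, thinning, the scaling, the level at which a gene was measured, and subsets of cells by depth or by other lineages.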

Additional observations from a re-analysis of the deposited data

How the results depend on the processing

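With at least 4 of the 6 S-phase genes the share of S-phase cells was 0.174% (control) and 0.0698% (knockout). The share of knockout members with an NK receptor UMI was 14.3%. With at least 2 of 6 the shares were 1.18% and 0.559%. Thinned to 2000 UMIs the control share was 0.206%. With at least 1000 genes the knockout share was 0.0944% and the ratio of knockout over control 0.359, and among NK receptor cells alone they were 0.0824% and 0.356.

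Genes higher in S-phase NK cells in both libraries numbered 50 among those measured at 100 CPM, all of them among the 151. With at least 4 of 6 genes, where the knockout has 1 cell, they numbered 11, of which 7 were among the 151. Genes lower in both numbered 16 under median-of-ratios scaling, 14 at 100 CPM, 18 with few UMIs of other lineages, 7 between the UMI quartiles of the members, 0 with at least 4 of 6 genes and 74 over all kept cells. Of these, in the same order, 16, 14, 8, 4, 0 and 26 were among the 29. Genes higher in knockout members numbered 32 at 100 CPM and 102 with at least 4 of 6 genes, and lower ones 127, 21 and, with few UMIs of other lineages, 141. The median of the histone list in the control turned from 1.05 to -0.40 at 100 CPM. At that level only the linker histones Hist1h1e and Hist1h1c of this list were still measured. In control members they stood at 337 and 137 CPM, against 467 and 171 in other NK cells. The turn thus reflects which genes were measured, as this setting leaves the CPM of each gene unchanged. Why these linker histones were lower in members was not tested. Median-of-ratios scaling moved the log2 ratio of knockout over control by -0.11 for all genes.

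No paired analysis was possible because each genotype is 1 library. With 33 NK members the depth limits single genes, above all in the 8 knockout cells, where 3 counts are 38.9 CPM.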
